A study of Homo sapiens with 10 samples.

Results

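A set of 10 genes of chromatin maintenance in dividing cells was followed: DNMT1, UHRF1, EZH2, SUV39H1, HELLS, ASF1B, CHAF1A, CHAF1B, CBX5 and SUZ12. They were chosen by gene symbol, with earlier results of these data known. Of the 10, 9 have a row in both the RNA-Seq and the Ribo-Seq table, out of 11258 transcripts that are in both. The expression of HELLS was not analysed here. A transcript is called tested where some library of RNA-Seq and some library of Ribo-Seq reached 5 FPKM (fragments per transcript length and library size), which held for all 9 and for 7015 transcripts in all. BJ cells, human fibroblasts immortalised with telomerase (hTERT), were profiled untreated (control) and after 2, 4, 6 and 19 h on nutlin-3a, an MDM2 inhibitor that stabilises p53. RNA-Seq of poly(A) RNA gave the transcript level, and Ribo-Seq, which sequences the mRNA fragments covered by ribosomes, gave the ribosome density. There were 10 libraries in all, 1 for each assay and time and all from 1 immortalised line. With no replicates no test was made, and every interval and standard error (SE) covers counting error only.

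These genes rebuild chromatin behind the replication fork. UHRF1 reads DNA that is methylated on the parental strand alone and brings in DNMT1, which methylates the daughter strand. ASF1B and the CAF-1 subunits CHAF1A and CHAF1B hand new histones H3 and H4 to the daughter DNA, and HELLS is a remodeller that opens nucleosomes to DNA methylation. EZH2, the catalytic subunit of Polycomb repressive complex 2 (PRC2), and its partner SUZ12 restore the repressive mark H3K27me3, while SUV39H1 writes H3K9me3 and CBX5, which encodes HP1 alpha, binds it. Many such genes are transcribed with the S phase programme of the E2F factors, which is shut when p53 induces the CDK inhibitor p21 (CDKN1A).

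The read totals that scale the FPKM values were 23845564 to 27554289 in RNA-Seq and 7744901 (19 h) to 14460726 (4 h) in Ribo-Seq. They were worked out from the steps between FPKM values and are not all reads sequenced. For Ribo-Seq the study lists far more reads, with most of the mapped ones from ribosomal RNA. CDKN1A RNA was at 68.6 FPKM in the control and at 212, 915, 1204 and 1316 FPKM at 2, 4, 6 and 19 h. All 9 p53 targets tested of 10 listed were at least 2-fold higher at 19 h in RNA, beside 2.5% of all tested genes. The 9 tested proliferation markers, of 10 listed, summed to 557 FPKM in the RNA-Seq control and 19.1 at 19 h. All 10 fibroblast markers were present, with a summed RNA level of 10080 to 13550 FPKM over the libraries, and of 10 markers of epithelial, endothelial, blood, liver and pigment cells 3 were in the RNA-Seq table, at 0.839 FPKM summed or less, and 0 in that of Ribo-Seq. In such bulk samples fewer cycling cells and less RNA per cell cannot be told apart.

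Most of the genes were far lower from 6 h of nutlin-3a on. A change is the log2 ratio to the matching control after values below 1 FPKM were set to 1, and a gene is counted as lower when it is at least 2-fold down. In RNA, 0, 3, 8 and 8 of the 9 genes were lower at 2, 4, 6 and 19 h, against 0.0143%, 0.684%, 5.39% and 7.10% of all tested genes. In ribosome density the numbers were 0, 1, 8 and 9 of 9, against 0.128%, 0.527%, 8.04% and 14.9% of all. The median RNA change of the 9 was -0.05, -0.83, -2.56 and -3.23 at the 4 times, beside -0.05, -0.07, -0.0024 and -0.07 over all tested genes. The median density change was 0.08, -0.50, -2.51 and -3.34, beside 0.02, 0.10, -0.02 and -0.19. At 2 h, then, the genes as a group were near their control level, and by 19 h the middle gene stood about 3 log2 units below it in both assays. SUZ12 was the gene not counted as lower in RNA at 6 and 19 h.

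**Figure D1:**
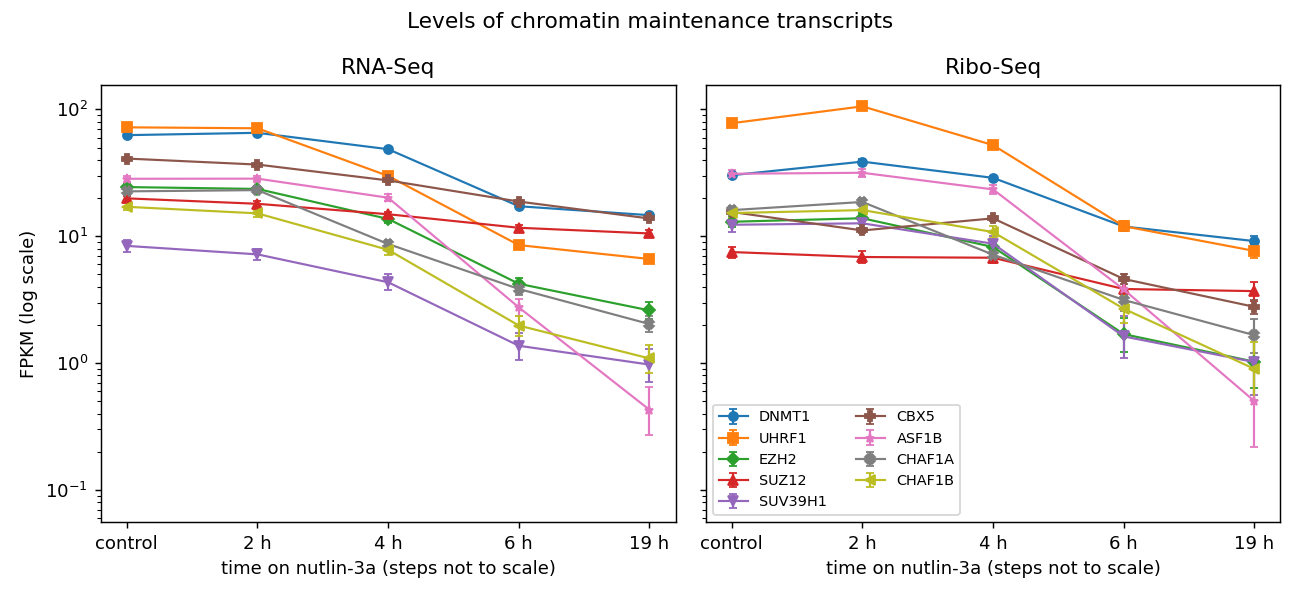
FPKM of the 9 transcripts (y axis, log scale) in the control and at 2, 4, 6 and 19 h of nutlin-3a (x axis, steps not to scale), RNA-Seq on the left and Ribo-Seq on the right; each point is 1 library, with its exact 95% counting interval. ASF1B ends lowest in both assays, at 0.429 FPKM in RNA-Seq and 0.502 in Ribo-Seq, and SUZ12 declines least.

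**Figure D2:**
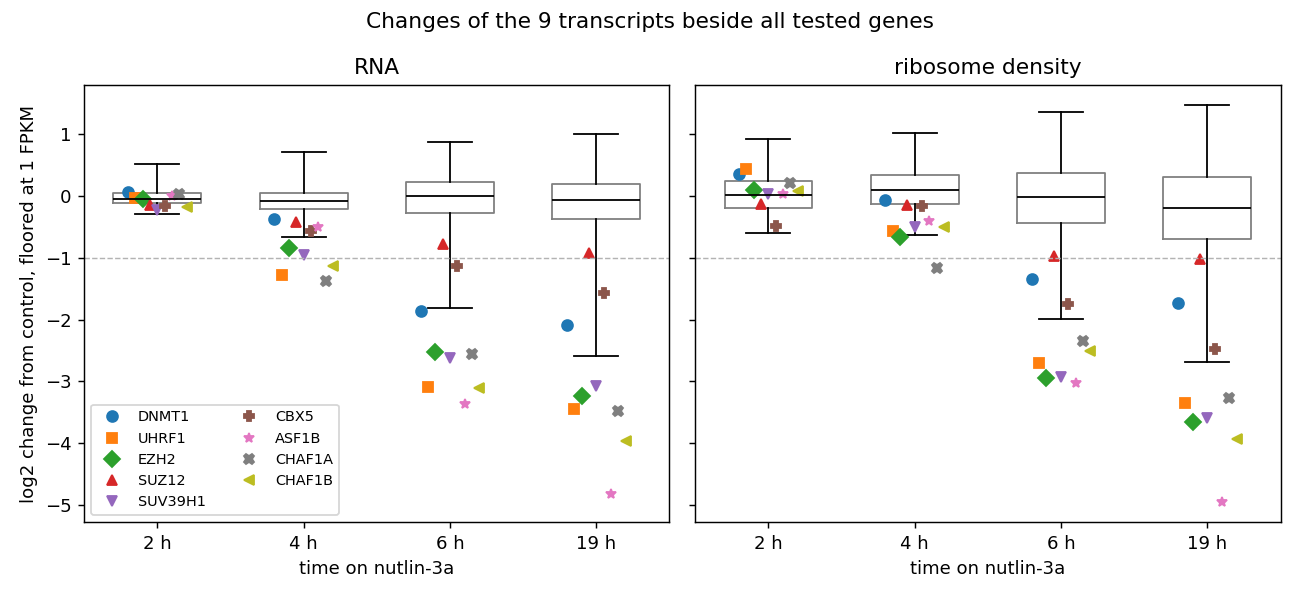
The log2 change from control (y axis) of the 9 transcripts at each time (coloured points) in RNA (left) and ribosome density (right), over boxes for all 7015 tested genes with the quartiles, the median and whiskers to the central 95%; the dashed line is a 2-fold decrease. The points lie near the boxes at 2 h, and at 19 h all but DNMT1, CBX5 and SUZ12 lie below the lower whiskers in both panels.

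The maintenance methylation pair held the highest RNA levels of the 9 in the control. UHRF1 was the most abundant of the 9 in the control, at 72.2 FPKM in RNA-Seq, followed by 71.0, 29.9, 8.52 and 6.62 FPKM at 2, 4, 6 and 19 h. Its Ribo-Seq levels were 77.8, 106, 52.3, 12.01 and 7.67 FPKM in the same order. UHRF1 RNA thus held its level at 2 h and was already 2.42-fold lower at 4 h (95% counting interval 2.32 to 2.52), while its ribosome density was highest in the 2 h library. At 19 h UHRF1 was 10.9-fold lower in RNA (10.1 to 11.8) and 10.2-fold lower in density (8.91 to 11.6). DNMT1 RNA was at 62.7, 65.4, 48.6, 17.2 and 14.7 FPKM in the control and at 2, 4, 6 and 19 h, and its ribosome density at 30.3, 38.8, 28.9, 11.95 and 9.16 FPKM. DNMT1 kept more of its level than its partner: at 19 h it was 4.28-fold lower in RNA (4.07 to 4.49) and 3.31-fold lower in density (2.96 to 3.70), and it was then the most abundant of the 9 in both assays. The ratio of UHRF1 to DNMT1 went from 1.15 (1.12 to 1.19) in the control to 0.452 (0.414 to 0.492) at 19 h in RNA, and from 2.57 (2.43 to 2.71) to 0.837 (0.712 to 0.983) in density. Both intervals at 19 h lie apart from those of the control.

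The start regions of these genes were searched because E2F-type letters are the best known feature of S phase promoters. Whether the letters bear on the changes was not tested. Sequences are from the RefSeq table of promoters (GRCh38.p14), which holds windows of 300 bases, from 250 before to 50 after a gene's start, and all 10 symbols matched, with 16 windows. Searched on both strands were the E2F-type letters TTTCCCGC, TTTGGCGC, TTTCGCGC and TTTGCCGC, the CHR letters TTTGAA, the CCAAT box and the GC box GGGCGG. Matches of the E2F and, for SUZ12 and ASF1B, also the CHR letters are in capitals, and each line reads 5′ to 3′ on the gene's strand. UHRF1 is from chr19:4909441-4909500 (plus strand), DNMT1 from chr19:10194948-10195007 (minus), EZH2 from chr7:148884282-148884341 (minus), SUZ12 from chr17:31936797-31936856 (plus) and ASF1B from chr19:14136590-14136649 (minus).
UHRF1: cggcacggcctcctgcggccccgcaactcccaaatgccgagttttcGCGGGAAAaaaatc
DNMT1: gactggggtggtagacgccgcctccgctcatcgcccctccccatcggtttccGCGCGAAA
EZH2: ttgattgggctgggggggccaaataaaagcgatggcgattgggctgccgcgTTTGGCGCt
SUZ12: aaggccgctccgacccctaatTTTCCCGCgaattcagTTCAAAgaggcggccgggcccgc
ASF1B: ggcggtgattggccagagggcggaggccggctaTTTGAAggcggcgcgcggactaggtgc

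E2F-type letters were found in 6 of the 16 windows, which belong to DNMT1, UHRF1, EZH2, HELLS and SUZ12, and in 3.31% of all 35116 windows. In UHRF1 the match begins 14 bases before the first listed start, in DNMT1 it begins 2 bases before the start, in EZH2 at base 2 after it, and in SUZ12 189 bases before it. The CHR letters were in 2 of the 16 windows, that of ASF1B, 27 bases before the start, and that of SUZ12, 173 bases before, and in 15.2% of all windows. CCAAT was in 11 of the 16 windows and the GC box in 12, with shares of 34.6% and 45.0% over all windows. Windows of ASF1B, CHAF1A, CHAF1B, SUV39H1 and CBX5 held none of the 4 E2F-type words. A match describes letters in a window, and binding was not measured.

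The PRC2 genes moved apart. EZH2 RNA was at 24.4, 23.6, 13.7, 4.22 and 2.60 FPKM in the control and at 2, 4, 6 and 19 h, and its ribosome density at 13.0, 13.9, 8.23, 1.69 and 1.03 FPKM. EZH2 was 9.38-fold lower in RNA at 19 h (8.03 to 11.0) and 12.7-fold lower in density (8.17 to 20.7), the latter from 21 reads at 19 h against 404 in the control. SUZ12 RNA was at 19.9, 18.0, 14.9, 11.7 and 10.5 FPKM in the same order, with a density of 7.51, 6.86, 6.77, 3.84 and 3.70 FPKM. SUZ12 RNA was a little lower at each later time, while most of its density decrease was the step from 4 to 6 h, -0.82 (SE 0.13). At 19 h SUZ12 was 1.89-fold lower in RNA (1.76 to 2.03) and 2.03-fold lower in density (1.66 to 2.50). Relative to the median change of all tested genes, its density change of -1.02 became -0.83 and no longer reached 2-fold. The 2 transcripts were at a ratio of 1.23 EZH2 to SUZ12 (1.15 to 1.31) in control RNA and 0.247 (0.211 to 0.289) at 19 h, and in density at 1.73 (1.51 to 1.99) and 0.278 (0.175 to 0.441). EZH2 was thus the higher of the pair before treatment and the lower at 6 and 19 h in both assays. EZH1, the paralog that can take the catalytic place of EZH2, did not pass the filter, since its density stayed between 1.33 and 1.67 FPKM. Its RNA was at 7.48, 6.38, 6.68, 8.77 and 9.16 FPKM, 1.23-fold of control at 19 h (1.12 to 1.34). EZH2 RNA exceeded that of EZH1 by a ratio of 3.27 (3.003 to 3.56) in the control and stood at 0.284 of it (0.243 to 0.333) at 19 h. In density the ratio was 8.47 (6.69 to 10.7) in the control and 0.684 (0.413 to 1.13) at 19 h, an interval that includes equal levels.

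Of the heterochromatin pair, SUV39H1 declined with EZH2, and CBX5 more slowly. SUV39H1 RNA was at 8.40, 7.20, 4.34, 1.37 and 0.974 FPKM in the control and at 2, 4, 6 and 19 h, and its density at 12.3, 12.7, 8.74, 1.62 and 1.02 FPKM. It was the least abundant of the 9 in control RNA and was 8.62-fold lower at 19 h (6.31 to 12.03), with a density 12.1-fold lower (7.07 to 22.4; 14 reads at 19 h). CBX5 RNA was at 41.0, 36.8, 27.6, 18.8 and 13.8 FPKM and its density at 15.5, 11.1, 13.8, 4.61 and 2.78 FPKM. CBX5 RNA declined at every step to 2.97-fold lower at 19 h (2.86 to 3.08), whereas its density was lower at 2 h than at 4 h and ended 5.596-fold lower (4.90 to 6.41). The genes of the other HP1 proteins, CBX1 (HP1 beta) and CBX3 (HP1 gamma), were also lower at 19 h. CBX1 RNA went from 52.5 FPKM in the control to 18.7 at 19 h and its density from 36.2 to 13.2 FPKM, changes of -1.49 and -1.45. CBX3, the most abundant of the HP1 genes in the control, went from 90.5 to 47.8 FPKM in RNA and from 107 to 23.1 FPKM in density, changes of -0.92 and -2.21.

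The histone chaperones held the steepest decline. ASF1B RNA was at 28.4, 28.5, 20.1, 2.75 and 0.429 FPKM in the control and at 2, 4, 6 and 19 h, and its ribosome density at 31.1, 31.7, 23.4, 3.81 and 0.502 FPKM. ASF1B was at its control level at 2 h in both assays, 10.3-fold lower in RNA at 6 h (8.75 to 12.3) and 66.2-fold lower at 19 h (43.9 to 105). In density the 19 h value was 62.0-fold lower (31.3 to 144), from 8 reads against 753 in the control. Without the floor these are changes of -6.05 and -5.95; with it they are -4.83 and -4.96. ASF1A, its paralog, which also serves histone deposition outside S phase, was at 10.1, 8.74, 8.13, 12 and 9.56 FPKM in RNA, 0.949 of control at 19 h (0.844 to 1.07). ASF1A density was at 9.90, 8.28, 5.74, 8.91 and 6.29 FPKM. The ratio of ASF1B to ASF1A in RNA was 2.82 (2.56 to 3.11) in the control and 0.0449 (0.0296 to 0.0681) at 19 h, and in density it was 3.14 (2.74 to 3.61) and 0.0799 (0.0390 to 0.164).

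CHAF1A RNA was at 22.6, 23.1, 8.69, 3.84 and 2.03 FPKM in the control and at 2, 4, 6 and 19 h, and its density at 16.1, 18.6, 7.16, 3.15 and 1.66 FPKM. CHAF1B RNA was at 17.1, 15.2, 7.82, 1.98 and 1.09 FPKM, and its density at 15.2, 16.1, 10.8, 2.69 and 0.901 FPKM. Both CAF-1 subunits were counted as lower in RNA at 4 h, by 2.60-fold for CHAF1A (2.38 to 2.84) and 2.18-fold for CHAF1B (1.95 to 2.45), and CHAF1A was the gene counted as lower in density at that time. At 19 h CHAF1A was 11.1-fold lower in RNA (9.52 to 13.0) and 9.68-fold in density (7.10 to 13.5), and CHAF1B 15.7-fold (12.2 to 20.5) and 16.9-fold (10.3 to 29.9). The ratio of CHAF1A to CHAF1B in RNA was 1.32 (1.22 to 1.43) in the control and 1.87 (1.41 to 2.48) at 19 h, with intervals that overlap slightly. In density it was 1.05 (0.931 to 1.19) in the control, 0.663 (0.572 to 0.768) at 4 h and 1.84 (1.04 to 3.27) at 19 h.

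**Figure D3:**
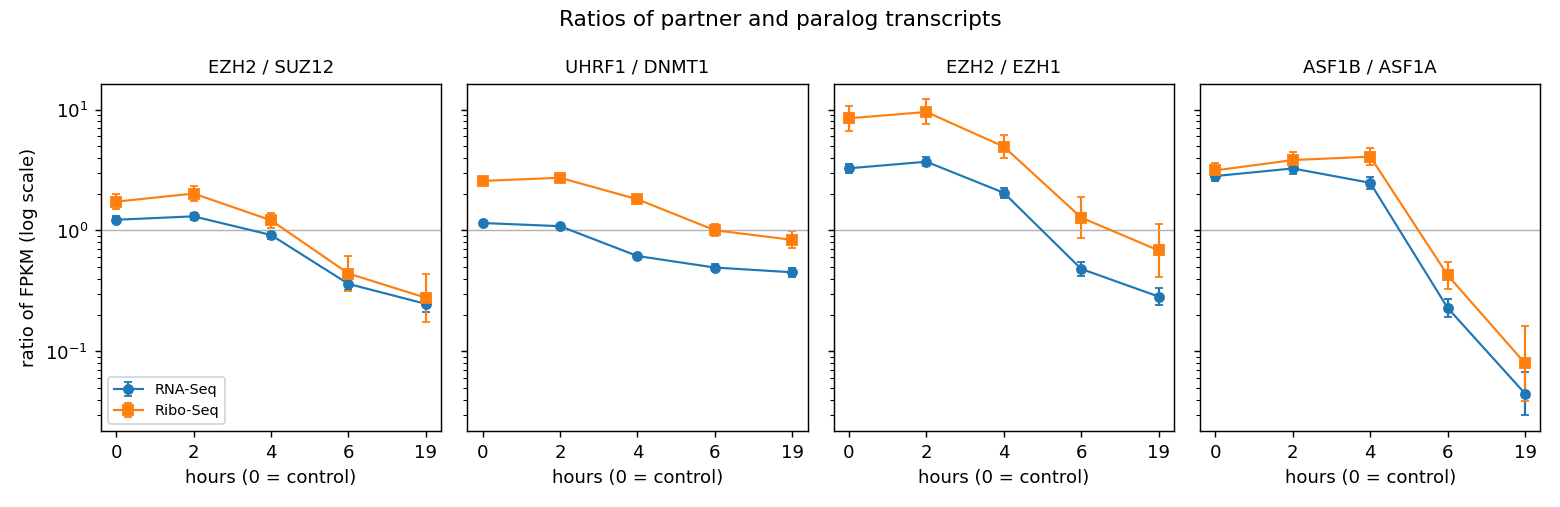
Ratio of FPKM values (y axis, log scale) of EZH2 to SUZ12, UHRF1 to DNMT1, EZH2 to EZH1 and ASF1B to ASF1A by hours on nutlin-3a (x axis, 0 is the control, steps not to scale), in RNA-Seq (blue circles) and Ribo-Seq (orange squares), 1 library a point with a 95% counting interval. All 4 ratios are lower at 19 h than in the control in both assays, that of ASF1B to ASF1A from 2.82 to 0.0449 in RNA.

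Timing set the genes apart as well. The step from 4 to 6 h was the largest decrease of 8 of the 9 genes in both assays. The share of all tested genes with their largest decrease there is not given here. The median RNA step of the 9 was -1.66 beside 0.05 for all tested genes, and the median density step -2.01 beside -0.17. In that step 7 of the 9 went down at least 2-fold in RNA and 8 in density, beside 4.23% and 7.48% of all tested genes. The exception, CHAF1A, had its largest decrease from 2 to 4 h, -1.41 (SE 0.06) in RNA against -1.18 (SE 0.09) from 4 to 6 h. In density its steps were -1.38 (SE 0.09) and -1.18 (SE 0.16). For SUZ12 RNA they were -0.27 (SE 0.05) and -0.35 (SE 0.05). Such neighbouring steps share the 4 h library, and whether they differ was not tested. The study's sample list leaves out the 2 h and 4 h libraries. Whether they shared a sequencing run with the control and the 6 h library is therefore not known from it. By 4 h SUZ12 had covered 45.2% of its RNA decrease at 19 h on the floored log2 scale, CHAF1A 39.7%, UHRF1 36.9%, CBX5 36.5%, SUV39H1 31.0%, CHAF1B 28.4%, EZH2 25.9%, DNMT1 17.6% and ASF1B 10.3%. By 6 h the shares ran from 69.8% for ASF1B to 89.4% for UHRF1. From 6 to 19 h ASF1B had the largest further RNA step of the 9, -1.46, or -2.68 without the floor. Its density step from 6 to 19 h was -1.93 with the floor and -2.92 without, where it exceeded the step of -2.62 from 4 to 6 h, so that 7 of the 9 had their largest density decrease from 4 to 6 h without a floor.

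The order of the transcripts changed with these declines. In control RNA it ran UHRF1, DNMT1, CBX5, ASF1B, EZH2, CHAF1A, SUZ12, CHAF1B and SUV39H1, and each neighbour differed from the next by more than the counting error. At 19 h it ran DNMT1, CBX5, SUZ12, UHRF1, EZH2, CHAF1A, CHAF1B, SUV39H1 and ASF1B, where CHAF1B and SUV39H1 did not differ beyond it. SUZ12 had moved up past UHRF1, EZH2, CHAF1A and ASF1B, and ASF1B had moved to the end. Density at 19 h ran DNMT1, UHRF1, SUZ12, CBX5, CHAF1A, EZH2, SUV39H1, CHAF1B and ASF1B, in which the last 5 could not be ordered between neighbours beyond counting error. Both assays are scaled to the full transcript length, so the Ribo-Seq order also depends on how much of each transcript is coding.

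Ribosome density followed RNA for most of the genes. Translational efficiency (TE) is the log2 ratio of the Ribo-Seq to the RNA-Seq value. Of the tested genes 1.18%, 0.956%, 5.71% and 5.82% changed at least 2-fold in TE at 2, 4, 6 and 19 h. None of the members did, out of 9, 9, 9 and 6 with all values at 1 FPKM or more. At shares this low a set of this size would hold few or none, so the count does not set these genes apart. The median TE change of the 9 was 0.18, 0.30, 0.20 and -0.10 at the 4 times, beside 0.04, 0.18, 0.0021 and -0.07 over all tested genes. UHRF1 TE was above control at 2 h by 0.47 (counting SE 0.04) and at 4 h by 0.70 (SE 0.05), when its RNA was lower and its density less so, and by 0.10 (SE 0.11) at 19 h. CHAF1B TE was up by 0.63 (SE 0.13) at 4 h, and DNMT1 TE by 0.29 to 0.52 at all 4 times. The TE change of DNMT1 was not extreme: 80.4%, 66.4%, 83.8% and 81.6% of all tested genes were at or below it at 2, 4, 6 and 19 h. Against the 2 h library in place of the control, the TE change at 19 h was 0.08 for DNMT1 and -0.36 for UHRF1.

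At 4 h TE was above control in all 9 genes. At 6 h it was below in 4 and above in 5, and at 19 h below in 5 and above in 4. Of all tested genes 26.7%, 49.8% and 55.55% were below control in TE at 4, 6 and 19 h. Most tested genes were thus above control at 4 h too, and the splits of the 9 at 6 and 19 h are near the shares over all. At 19 h EZH2 was at -0.43 (SE 0.34), SUV39H1 at -0.52 (SE 0.46) and SUZ12 at -0.10 (SE 0.16). CBX5 had the lowest TE change of the 9 at 2, 6 and 19 h. Its TE change was -0.33 (SE 0.05) at 2 h, 0.41 (SE 0.05) at 4 h, -0.63 (SE 0.07) at 6 h and -0.91 (SE 0.10) at 19 h. Of all tested genes 5.602% had a TE change at or below its value at 19 h. CBX5 has the longest transcript of the 9, 11528 nt. The 176 tested transcripts of at least 8000 nt had a median TE change of 0.30 at 19 h, and 0.568% of them, CBX5 itself, were at or below its value. They were picked by full length alone, and how much of each is coding was not compared. Whether length bears on the CBX5 value was not tested. The TE change of CBX3 was -1.29 (SE 0.09) at 19 h, and that of CBX1 was 0.04 (SE 0.11). At 4 h CBX5 stood at 0.41 beside 0.09 for CBX1 and -0.08 for CBX3, so the 3 genes had no common course. The CBX5 value at 19 h depended on the scale: it was -0.63 with a pseudocount of 1 FPKM, -0.59 against the 2 h library and -0.07 with a floor of 5 FPKM, which lies above its Ribo-Seq level at 19 h. ZNF354B and LGALS1, the 2 transcripts with the highest mean Ribo-Seq FPKM, took 13.8% of the reads in the control and 5.12%, 3.84%, 5.72% and 11.7% at 2, 4, 6 and 19 h. With values rescaled without them, the median density change of the 9 at 2 h turned from 0.08 to -0.06 and their median TE change from 0.18 to 0.04.

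**Figure D4:**
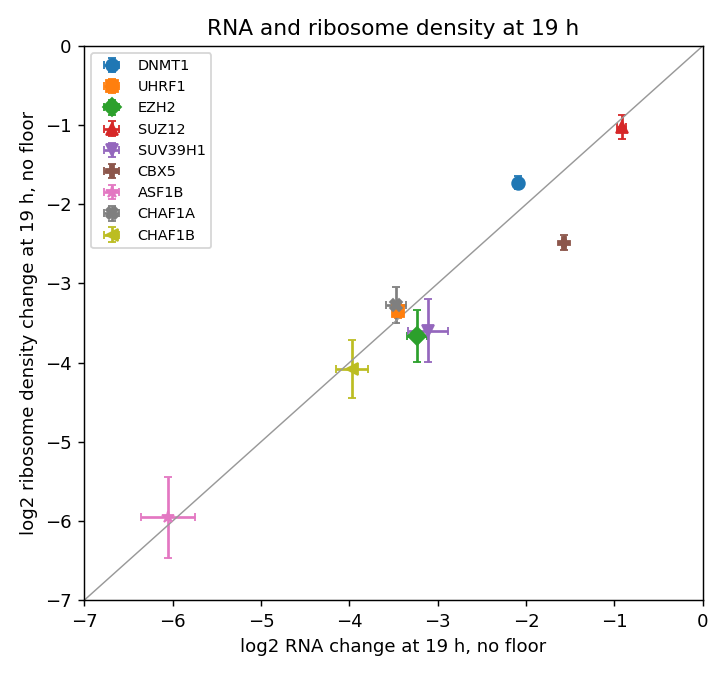
The log2 change at 19 h without a floor in RNA (x axis) and in ribosome density (y axis) for the 9 transcripts, with bars of 1 counting SE and a line of equal change. Points lie near the line from SUZ12 to ASF1B, with CBX5 below it, at -1.57 in RNA and -2.48 in density, and DNMT1 above it, at -2.10 and -1.73.

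**Figure D5:**
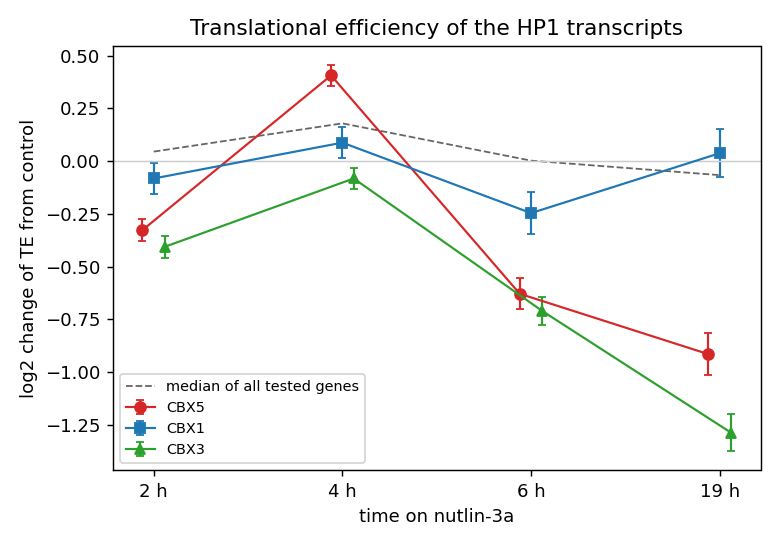
The log2 change of TE from control (y axis) of CBX5, CBX1 and CBX3 at 2, 4, 6 and 19 h (x axis), 1 library an assay at each time, with bars of 1 counting SE; the dashed line is the median of all tested genes. CBX5 and CBX3 end at -0.91 and -1.29, while CBX1 is at 0.04.

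Other genes of the same pathways, the members left out, were taken from 6 lists, also chosen with earlier results of these data known. Among DNA methylation genes, 9 of 16 listed were tested, and 0 were lower in RNA and 1 in density at 19 h, beside 7.10% and 14.9% of all tested genes. That 1 was UHRF2, the paralog of UHRF1, whose RNA was at 17.3 FPKM in the control and 11.3 at 19 h and whose density change was -1.21. PCNA, the replication clamp, was at 135 FPKM in control RNA and 94.8 at 19 h, and the methyl-DNA binding genes MBD3 and MBD4 had RNA changes of -0.48 and -0.56. The methyltransferases that set new methylation did not pass the filter: DNMT3A RNA was at 3.30 FPKM in the control and 4.54 at 19 h, and DNMT3B at 2.09 and 0.575.

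In the heterochromatin list 9 of 18 genes were tested, and at 19 h 1 was lower and 1 higher in RNA, with 2 lower and 1 higher in density. Over all tested genes 7.10% were lower and 2.5% higher in RNA at 19 h, and 14.9% and 6.2% in density. The counts of lower genes in this list are near those shares. CBX1 was the lower gene in RNA, joined by CBX3 in density. KDM4B, a demethylase of H3K9, was higher. Its RNA was at 7.02, 8.34, 12.04, 16.0 and 19.2 FPKM in the control and at 2, 4, 6 and 19 h. Its density was at 3.72, 5.02, 7.55, 14.5 and 15.0 FPKM in the same order, with little change from 6 to 19 h. TRIM28, a corepressor that recruits H3K9 methylation, had changes of -0.65 in RNA and -0.14 in density. Of 11 PRC2 genes 6 were tested, of which 2 were lower in RNA and 3 in density at 19 h. PHF19, a PRC2 accessory factor that binds H3K36 methylation, was at 33.5 FPKM in control RNA and 5.05 at 19 h, and at 29.2 and 3.01 FPKM in density. RBBP7, a histone-binding subunit shared with other complexes, fell by 1.37 in RNA on the log2 scale, and the RNA changes of its paralog RBBP4 and of the core subunit EED were -0.66 and -0.44. In PRC1, 1 of 10 tested genes was lower in RNA and the same number in density, near the shares over all tested genes, and it was PCGF6 in each case, with changes of -1.08 and -1.63, while the RNA changes of PCGF1 and PHC2 were 0.27 and -0.23.

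The histone chaperones were the list with most genes down. Of 17 tested among 20 listed, 9 were lower in RNA and 12 in density at 19 h, and 0 were higher in either. Over all tested genes 7.10% and 14.9% were lower in RNA and density, and 2.5% and 6.2% higher. HJURP, which deposits the centromeric histone CENP-A, was at 39.8 FPKM in control RNA and 0.780 at 19 h. TONSL, which binds new histones behind the fork, went from 10.9 to 1.48 FPKM, NASP, a carrier of H3 and H4, from 40.4 to 8.30, and the chaperone DNAJC9 from 18.6 to 4.52. HIRA, which deposits histone H3.3 independently of replication and was picked for mention after its values were seen, was at 15.6 and 15.1 FPKM. Among SNF2 remodellers and partners of HELLS, 15 of 25 were tested, with 2 lower in RNA and 4 in density at 19 h. The matching shares over all tested genes were 7.10% and 14.9%. CDCA7, an activator of HELLS, was at 13.7, 11.7, 4.48, 0.651 and 0.537 FPKM in RNA in the control and at 2, 4, 6 and 19 h, and its relative CDCA7L fell by 1.66 on the log2 scale. SMARCA5, the motor of the ISWI remodellers, was at 23.6 FPKM in control RNA and 20.8 at 19 h, and HLTF and BAZ1B had RNA changes of -0.81 and -0.80. Of the paralogs and relatives named, ASF1A, EZH1, DNMT3A and SMARCA5 stayed within 1.5-fold of control in RNA at every time, while the density change of ASF1A was -0.79 at 4 h and -0.65 at 19 h.

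Likeness of pattern was measured as the root mean square distance over the 8 changes (RNA and density at 4 times) among all tested genes. Nearest to the median profile of the 9, the members themselves left out, were TIMELESS, at a distance of 0.0799, and then MCM4, TMPO, MCM6, CDK2, RFC2, MCM5 and CENPL, at up to 0.302. TIMELESS, a replication fork protein, was at 23.5 FPKM in control RNA and 2.48 at 19 h, and at 14.1 and 1.42 FPKM in density. EZH2 and SUV39H1 were each other's nearest gene out of all tested, at a distance of 0.118. The nearest to CHAF1A was UHRF1, to UHRF1 MCM4, to CHAF1B FEN1, to ASF1B KIF23 and to DNMT1 SLC43A3. CBX5 was nearest to HAT1 (0.154), a histone acetyltransferase of new H4, whose RNA was at 52.2 FPKM in the control and 18.6 at 19 h, and SUZ12 to PLSCR1 (0.0829). These distances describe shared libraries and carry no error of their own.

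Reads that fit more than 1 transcript had been dropped by the authors, and RefSeq lists pseudogenes named for CBX5 (1) and SUZ12 (2). UHRF1 overlaps ARRDC5 and CHAF1A overlaps UBXN6, and whether counting used the strand is not given in the sources used here.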

How the data were processed

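The authors aligned reads of 5 RNA-Seq and 5 Ribo-Seq libraries with Bowtie to 1 protein-coding transcript per gene (Ensembl release 65; the submitters' notes name hg19), kept unique hits, and deposited FPKM values, reads scaled to transcript length and library total. Assays were assigned from the tables' names, 1 of which names both assays and was taken for RNA-Seq: of 24 replication-dependent histone transcripts, whose mRNAs lack poly(A) tails, 19 were below 1 FPKM in its control. The study's methods count Ribo-Seq reads in the coding sequence alone, but the lengths recovered agree between the tables, so which reads these values count is not settled. The study lists coding shares that differ between its nutlin-3a series Ribo-Seq libraries. It also lists fewer reads in frame there than in its other Ribo-Seq libraries. How far this enters the density and TE changes was not tested. The study describes a sequencing-run batch and compared each condition with a control of its own run. The run of each library was not used here. For nutlin-3a the study's sample list holds a control and the 6 h and 19 h libraries of each assay. The 2 h and 4 h libraries are not in it, so it does not give their run. How far a difference between runs enters the changes at 2 h and 4 h, or the step from 4 to 6 h, was not tested.

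Reads, lengths and library totals were recovered from the steps between values for 99.8% of transcripts (99.4% of values within 0.1 of a whole read), a step tested on simulated data. They gave exact 95% Clopper-Pearson intervals of ratios and SEs, which cover counting error only. FPKM was floored at 1, and log2 changes to the control were taken for 7015 tested genes (at least 5 FPKM in a library of each assay). With 1 library a group no p-value was computed. Genes named were the 10 members, up to 4 tested genes a list with the largest RNA change at 19 h, the paralogs and relatives, and the nearest profiles; 1 gene that this rule names is not reported here. Members and lists were chosen with earlier results of these data known. Alternatives were other floors, a pseudocount, the 2 h baseline, centring, rescaling, filters and call rules. Python 3.11.15, numpy 2.4.6, pandas 2.3.3, scipy 1.17.1 and matplotlib 3.10.9 were used.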

Additional observations from a re-analysis of the deposited data

Results flagged for a closer look

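The genes below changed one way at an early time and the other way at 19 h, each by more than its counting error, in 1 library a time, and how far the times differ was not tested. DNMT1 RNA was at 0.061 (log2 change from control, counting SE 0.02) at 2 h and at -2.10 (SE 0.04) at 19 h, and its ribosome density was at 0.36 (SE 0.04) and -1.73 (SE 0.08). UHRF1 density was at 0.44 (SE 0.03) at 2 h and at -3.34 (SE 0.10) at 19 h, and CHAF1A density at 0.21 (SE 0.08) and -3.27 (SE 0.23). CBX5 TE was at 0.41 (SE 0.05) at 4 h and at -0.91 (SE 0.10) at 19 h. The share of Ribo-Seq reads in the 2 most abundant transcripts was 13.8% in the control and 5.12% at 2 h, and with values rescaled without them the density changes at 2 h were 0.22 for DNMT1, 0.30 for UHRF1 and 0.08 for CHAF1A, the last of which is within its counting error.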

How the results depend on the processing

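No paired analysis was possible because every group held 1 library, and no library could be left out. All medians of RNA and density at 6 and 19 h stayed below 0 under every alternative. With a floor of 5 FPKM the median RNA change was -1.86 at 6 h and -2.10 at 19 h and the median density change -1.61 and -1.64, since most of the genes were under 5 FPKM by then. With a pseudocount of 1 FPKM in place of the floor these were -2.28, -2.82, -2.14 and -2.72. A filter on a mean of at least 20 FPKM in each assay kept DNMT1 and UHRF1 alone, both counted as lower, so each count of 8 or 9 became 2, and the medians were -2.77 for RNA at 19 h and -2.02 and -2.53 for density at 6 and 19 h. A cut-off that slides with the local SD along the level, after the study's methods, counted 6 genes as lower in RNA and 7 in density at 19 h. The median TE change at 19 h, -0.10, turned to 0.16 with the floor of 5 FPKM and to 0.02 with the pseudocount, and that at 6 h, 0.20, turned to -0.08 against the 2 h library. The rescaling at 2 h and the steps without a floor were chosen after seeing the data. With 8 reads for ASF1B, 14 for SUV39H1 and 16 for CHAF1B in Ribo-Seq at 19 h, depth limits their density and TE there.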
